A study of Sus scrofa with 2 samples.

Results

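Apoptosis genes were followed in the somatic cells of 2 porcine antral follicles, as a set of 32 genes that either carry out or hold back programmed cell death. A gene was taken when its symbol stood in the gene list that both deposited matrices share, which held for 25 of the 32 members among 22342 listed genes. Of the listed members 19 were pro-apoptotic and 6 were anti-apoptotic, and the lists were described apart. The pro-apoptotic members CASP2, BBC3 and BIK and the anti-apoptotic members BCL2, BCL2L2, XIAP and BIRC2 were not listed as a symbol and were not analysed here.

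Apoptosis starts along an intrinsic route, in which proteins of the BCL2 family decide whether the outer mitochondrial membrane lets cytochrome c out, or along an extrinsic route, in which ligands engage death receptors at the cell surface. Both routes activate initiator caspases, which switch on executioner caspases, and each step has its own inhibitors. In the ovary, apoptosis of granulosa cells is the hallmark of atresia, the loss of follicles before ovulation.

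Both follicles came from 1 Landrace and Yorkshire crossbred pig, pubertal at 210 days of age, which had been given pregnant mare serum gonadotropin to bring antral follicles on. The follicles were described as healthy and measured over 7 mm across, and they were named follicle 1 and follicle 2, with no treatment or genotype that set them apart. Each was punctured, its fluid was flushed out, and cumulus-oocyte complexes were stripped of their cells with hyaluronidase, so that mural and cumulus granulosa cells of a follicle went into the same droplet-based library. Each follicle was thus 1 library of 1 pig, so no test between follicles was made and the 95% intervals given here cover counting error only.

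Barcodes with 2000 to 5000 genes and under 7% of their unique molecular identifiers (UMIs, each standing for 1 captured RNA molecule) from the 13 mitochondrial genes were taken as cells. They numbered 9362 in follicle 1 and 7843 in follicle 2, 17205 of the 29837 deposited barcodes, and held 111226504 and 108920601 UMIs. The 2 sets of cells shared 18 barcode sequences. Summed levels of 9 listed granulosa markers were 31537 CPM (UMIs of a gene scaled to a library of 1e6 UMIs) in follicle 1 and 32880.2 CPM in follicle 2, whereas 7 oocyte markers summed to 4.97 and 5.22 CPM, with 5 of them, among them ZP2, ZP3 and BMP15, at 0 in both follicles. The 10 immune markers summed to 22.9 and 28.8 CPM.

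Among the pro-apoptotic members, the apoptosome and mitochondrial factors were the most abundant group. Their sum was 546 CPM in follicle 1 and 551 CPM in follicle 2. Levels are given per UMI, since each molecule was counted at its 3′ end and not by its length. CYCS, which encodes cytochrome c, reached 262 and 252 CPM in follicles 1 and 2. APAF1, the scaffold that cytochrome c assembles into the apoptosome, stood at 211 and 223 CPM. DIABLO, a mitochondrial protein that releases caspases from their inhibitors, stood at 73.0 and 75.7 CPM. These 3 genes held most of the pro-apoptotic UMIs in both follicles.

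The BCL2 family members that promote death lay lower. Of the effectors, which perforate the outer mitochondrial membrane, BAX was measured at 53.6 and 55.1 CPM and BAK1 at 9.38 and 9.54 CPM. BOK had 15 and 9 UMIs in all and was the sole member below the floor of 100 UMIs over both follicles. The BH3-only proteins BID and BAD, which set the effectors free or hold the guardians off, were the abundant ones of their kind, at 65.5 and 59.0 CPM for BID and 46.8 and 47.6 CPM for BAD. The other BH3-only members were scarce. PMAIP1 (NOXA) was at 4.92 and 3.63 CPM, BCL2L11 (BIM) at 3.34 and 7.05 CPM and BMF at 0.315 and 1.35 CPM.

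Components of the extrinsic route and the caspases were measured over a similar range. TNFRSF1A, the main receptor for TNF, stood at 55.0 CPM in follicle 1 and 52.6 CPM in follicle 2. FAS, the receptor for FAS ligand, was at 3.30 and 1.98 CPM, and the death receptor TNFRSF21 at 0.665 and 0.532 CPM. The adaptors that link receptors to caspases were more abundant than FAS and TNFRSF21, with TRADD at 33.0 and 31.3 CPM and FADD at 27.4 and 25.8 CPM. CASP8, the initiator of the extrinsic route, was at 9.49 and 10.2 CPM. CASP9, the initiator that the apoptosome activates, was at 2.08 CPM in each follicle, and the executioner CASP6 was at 32.6 and 35.3 CPM.

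All 6 listed anti-apoptotic members were above the floor in both follicles. TNFRSF6B, a secreted decoy receptor that binds FAS ligand, was the most abundant of them in follicle 1 at 214 CPM, and stood at 119 CPM in follicle 2. MCL1, a short-lived guardian that holds BAX and BAK1 in check, was at 173.5 and 146 CPM. CFLAR (FLIP), which blocks CASP8 at the receptor, was at 165 and 162 CPM. BIRC6 and BIRC3, of the inhibitor of apoptosis family, were at 67.5 and 66.8 CPM and at 64.9 and 60.1 CPM, and the guardian BCL2L1 (BCL-XL) was at 13.8 and 13.5 CPM.

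**Figure D1:**
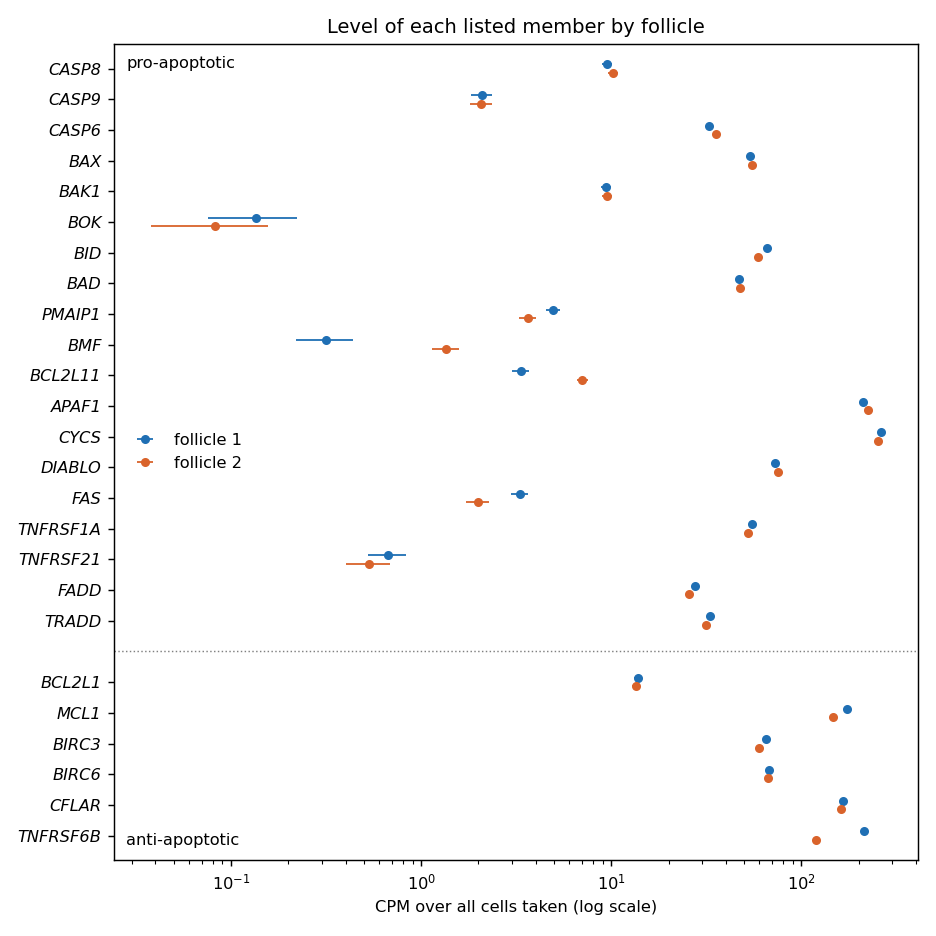
Level of the 25 listed members in follicle 1 (blue) and follicle 2 (orange), as CPM over all cells taken on a log axis, with pro-apoptotic members above the dotted line and anti-apoptotic members under it. Bars are 95% Poisson intervals; most members coincide, whereas BMF, BCL2L11, FAS, PMAIP1 and TNFRSF6B stand apart between the follicles.

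The question of whether the follicles differed in their apoptosis genes was put to the summed UMIs. The pro-apoptotic sum was the same within counting error, at 893 CPM in follicle 1 and 894 CPM in follicle 2, a ratio of 1.00 (0.993 to 1.01). The anti-apoptotic sum was lower in follicle 2, at 568 against 699 CPM, a ratio of 0.812 (0.804 to 0.821). Anti-apoptotic UMIs made up 43.9% of all member UMIs in follicle 1 and 38.8% in follicle 2. Without TNFRSF6B these shares were 35.2% and 33.4%, and the ratio of the anti-apoptotic sums was 0.926 (0.915 to 0.937).

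Member by member, a ratio of follicle 2 to follicle 1 below 0.8 or above the inverse of 0.8 was called past the fold. Of the 18 pro-apoptotic members above the floor, 2 were higher in follicle 2 (BMF and BCL2L11) and 2 were lower (FAS and PMAIP1). BMF, with 35 and 147 UMIs in follicles 1 and 2, was above the floor only through the follicle where it was higher. Of the 6 anti-apoptotic members, TNFRSF6B was lower and none was higher. Among all 11440 genes above the floor, 8.22% were higher and 9.96% lower, so the members were past the fold about as often as any gene. The median log2 ratio was 0.01 over the pro-apoptotic members, -0.07 over the anti-apoptotic members and 0.0001 over all genes.

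BMF, a BH3-only protein tied to the cytoskeleton (chr1:131178021-131199668 in Sscrofa11.1), was counted at 35 UMIs in follicle 1 and 147 UMIs in follicle 2. Its level was thus 4.29-fold (2.95 to 6.39) higher in follicle 2, from low counts in both. BCL2L11 (chr3:45156791-45202996), which binds every guardian of the family, was counted at 371 and 768 UMIs and was 2.11-fold (1.87 to 2.40) higher in follicle 2. FAS was 0.601 times (0.506 to 0.713) and PMAIP1 0.737 times (0.646 to 0.841) its level of follicle 1. TNFRSF21, with 74 and 58 UMIs, lay just inside the limit at 0.8004 times (0.558 to 1.14), and MCL1 was at 0.844 times (0.826 to 0.861).

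**Figure D2:**
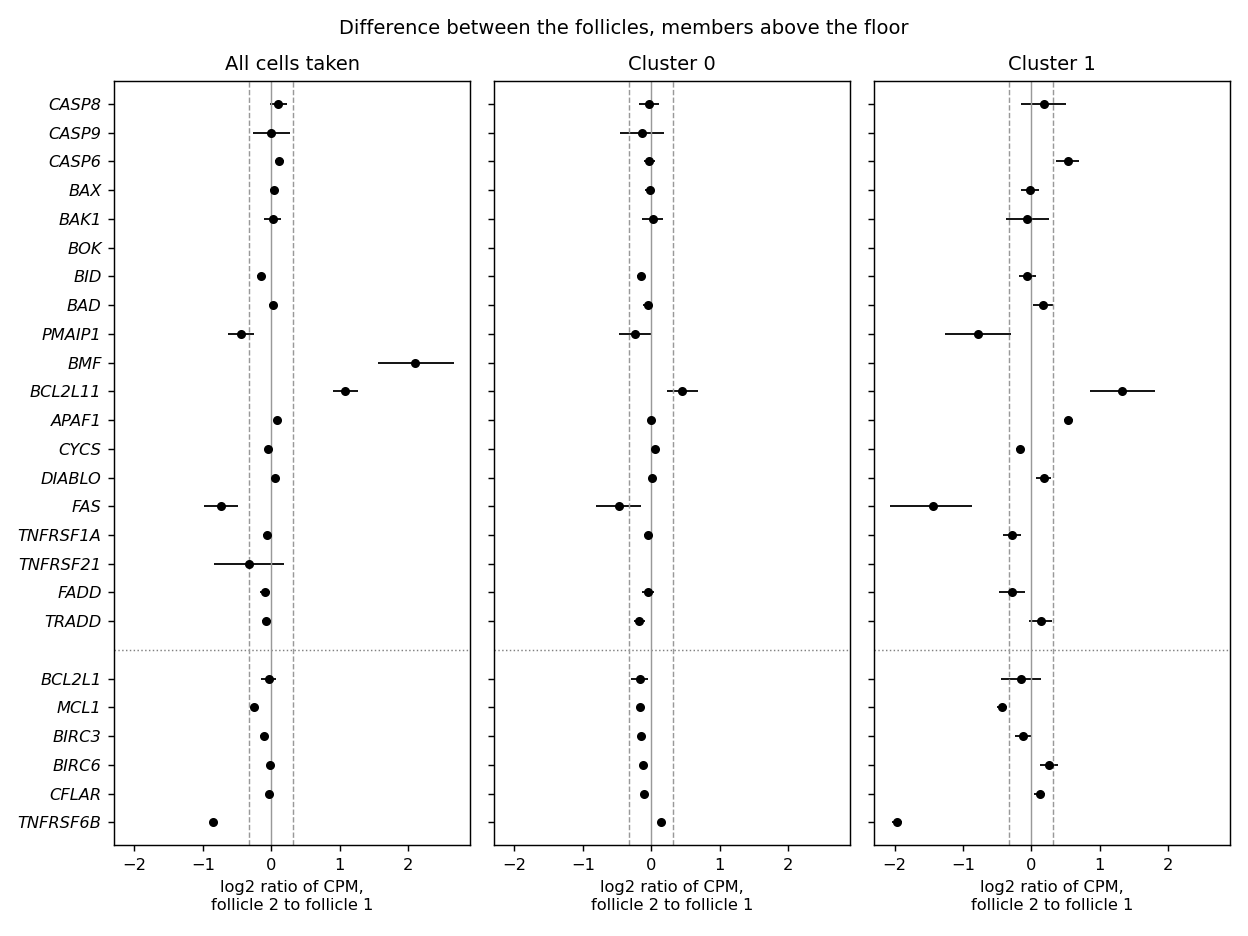
Log2 ratio of CPM in follicle 2 to follicle 1 for members above the floor, over all cells taken, in cluster 0 and in cluster 1. Bars are 95% intervals for counting error and dashed lines mark the fold limits of 0.8 and its inverse; in cluster 0 TNFRSF6B lies within the limits, whereas in cluster 1 it lies at -1.96.

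Cells were grouped to see where these differences lay. Graph-based clustering, from which all members and 46 other listed apoptosis genes were withheld, gave 6 clusters, which are called by number and leading genes. Cluster 0, led by TGFB3, ENPP2 and IL33, held 6373 cells of follicle 1 and 5916 of follicle 2. Cluster 1, led by ARPP21, ALPK2 and SHAS2, held 2336 and 929 cells. Cluster 2, led by DEFB1, CCL26 and CEMIP, held 682 cells of follicle 2 and 0 of follicle 1, which allows a share of up to 0.0320% there. Cluster 3, led by TOP2A and other cell division genes, held 458 and 120 cells, cluster 4, led by ALDH1A2 and SLC24A1, held 172 and 168, and cluster 5, led by the interferon-induced CXCL10 and RSAD2, held 23 and 28.

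TNFRSF6B was counted at 23809 UMIs in follicle 1 and 12947 UMIs in follicle 2, and the difference between the follicles lay in clusters 1 and 3. In cluster 0 it was at 93.0 CPM in follicle 1 and 103 CPM in follicle 2. In cluster 1 it was at 497 CPM in follicle 1 and 128 CPM in follicle 2, a ratio of 0.257 (0.245 to 0.270). The level of cluster 1 in follicle 1 was thus 3.90 times that of the other cells of the follicle, whereas in follicle 2 it was 1.09 times. Marker levels of cluster 1 differed as well. The cumulus marker VCAN was at 5794.5 CPM in follicle 1 and 1058.9 CPM in follicle 2. The mural markers AREG and CYB5A summed to 1218 and 4764 CPM. VCAN was at 3118 and 437 CPM in cluster 3 and at 690 and 291 CPM in cluster 0. The part of these marker differences in the TNFRSF6B levels was not tested.

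Cluster 3 showed the same order as cluster 1, with 431 CPM of TNFRSF6B in follicle 1 and 176 CPM in follicle 2, and cluster 4 held 309 and 287 CPM. Cells of cluster 1 supplied 54.4% of the TNFRSF6B UMIs of follicle 1 and 13.5% of those of follicle 2. On the scale of the whole follicle that was 116 CPM against 16.1 CPM, while cluster 0 supplied 63.1 and 80.6 CPM. After each cell was thinned to 5000 UMIs, TNFRSF6B was detected in 64.7% of the cluster 1 cells of follicle 1 and in 35.6% of those of follicle 2, beside 29.4% and 29.2% in cluster 0.

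Reads of TNFRSF6B need care, because in the RefSeq annotation of Sscrofa11.1 the gene (chr17:62635024-62637520, plus strand) overlaps the end of RTEL1 on the same strand and of ARFRP1 on the other. RTEL1 was at 8.06 and 7.50 CPM and ARFRP1 at 44.5 and 45.4 CPM in follicles 1 and 2, ratios of 0.931 and 1.02. Both neighbours were thus within the fold over all cells taken. Neither was measured within clusters 1 and 3, where the TNFRSF6B difference lay. How the counting split molecules among the 3 genes was not tested.

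The other members were close between the follicles in cluster 0, where of 16 pro-apoptotic members above the floor BCL2L11 was higher in follicle 2 and FAS lower, and none of the 6 anti-apoptotic members passed the fold. Of all genes there, 3.29% were higher and 9.05% lower. BCL2L11 was at 3.58 CPM in follicle 1 and 4.90 CPM in follicle 2 in these cells (1.37-fold, 1.17 to 1.60), and FAS at 2.33 and 1.68 CPM. In cluster 1 the follicles differed more in general, with 20.7% of all genes higher and 16.0% lower in follicle 2. APAF1 at 159 and 232 CPM, BCL2L11 at 2.61 and 6.56 CPM and CASP6 at 26.8 and 38.8 CPM were higher there, and FAS, PMAIP1, MCL1 and TNFRSF6B were lower. For MCL1 these levels were 201 CPM in follicle 1 and 150.0 CPM in follicle 2. The summed anti-apoptotic level of cluster 1 was 958 CPM in follicle 1 and 553 CPM in follicle 2, a ratio of 0.577, or 0.921 without TNFRSF6B.

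Each cluster was then set against the other cells of its follicle, and a member was called when it differed more than 1.5-fold in every follicle that held the cluster. In cluster 0 none was higher, and FAS and TNFRSF6B were lower (1.97% and 5.06% of all genes). In cluster 1 no member was higher or lower (1.5% and 3.19% of all genes), since TNFRSF6B and FAS met the fold in follicle 1 alone. Clusters 3, 4 and 5 had no member higher (5.07%, 3.43% and 3.13% of all genes) and 1 lower each (5.10%, 4.79% and 9.76%): CASP9 in cluster 3, where it had 10 and 0 UMIs, PMAIP1 in cluster 4, with 4 and 5 UMIs, and CASP9 in cluster 5, with 0 UMIs in both follicles. These calls rest on counts too small to rank. In cluster 3 TNFRSF6B stood at 2.17 times the other cells in follicle 1 and at the limit itself in follicle 2.

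The most abundant pro-apoptotic members, CYCS, APAF1 and DIABLO, passed the fold in none of clusters 0, 1, 3 and 4. CYCS ranged from 244 to 313 CPM in follicle 1 and from 218 to 339 CPM in follicle 2 over these clusters, APAF1 from 159 to 234 and from 153 to 233 CPM, and DIABLO from 68.1 to 83.6 and from 75.3 to 86.0 CPM. MCL1 ranged from 162 to 201 and from 137 to 150.0 CPM, and CFLAR from 130.4 to 180.3 and from 134 to 181 CPM. Of the 6 most abundant members TNFRSF6B alone spanned more than 2-fold among them in each follicle, from 93.0 to 497 CPM in follicle 1 and from 103 to 287 CPM in follicle 2.

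**Figure D3:**
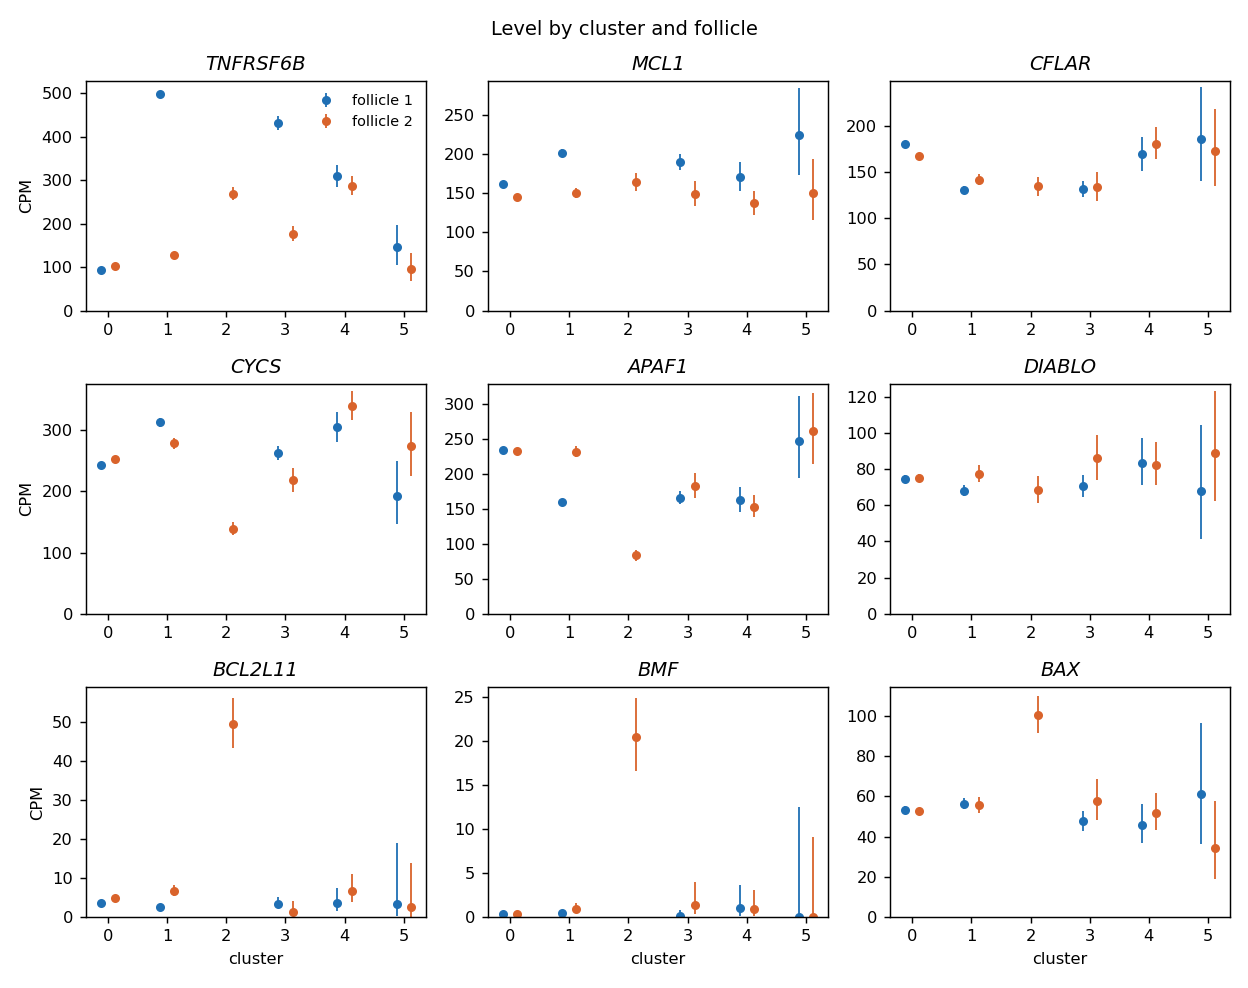
CPM of 9 members in each cluster of follicle 1 (blue) and follicle 2 (orange), with 95% Poisson intervals and axes from 0; cluster 2 has no cells in follicle 1. TNFRSF6B is highest in cluster 1 of follicle 1 at 497 CPM, and in cluster 2 BCL2L11 and BMF reach 49.6 and 20.4 CPM while CYCS and APAF1 lie at 139 and 83.2 CPM.

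In cluster 2 of follicle 2, the BH3-only genes BMF and BCL2L11 were the members above the floor with the highest ratios to the other cells of the follicle. BMF was at 20.4 CPM in cluster 2 (99 UMIs) and 0.461 CPM in the other cells (48 UMIs), a ratio of 44.3 (31.1 to 64.0). BCL2L11 was at 49.6 against 5.07 CPM, a ratio of 9.77 (8.35 to 11.4). Cluster 2 held 8.70% of the cells of follicle 2 and 67.3% of its BMF UMIs and 31.25% of its BCL2L11 UMIs. TNFRSF21, under the floor with 21 UMIs in cluster 2 and 37 UMIs in the other cells, had a ratio of 12.2 (6.79 to 21.4). Of those 21 UMIs, 15 lay in 8 cells that held at least 5 UMIs of 7 immune markers, and without these cells 6 UMIs and a ratio of 3.54 (1.22 to 8.46) remained.

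At 5000 UMIs per cell, BCL2L11 was detected in 20.6% and BMF in 8.80% of cluster 2 cells, against 2.17% and 0.237% in cluster 0 of the same follicle. These shares are over 591 cells of cluster 2 and 5908 of cluster 0, with 91 and 8 shallower cells left out. Among the 682 cells, 177 had a UMI of BCL2L11, 92 had one of BMF and 41 had both. With cluster 2 left out, BCL2L11 was still past the fold between the follicles, at a log2 ratio of 0.60 in place of 1.08. BMF was then at a log2 ratio of 0.55 in place of 2.10 and, with 35 and 48 UMIs, under the floor.

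With these genes included, 9 of 17 pro-apoptotic members were higher in cluster 2 and 3 were lower, and 3 of 6 anti-apoptotic members were higher. Among the 9 was BMF, which was above the floor only through cluster 2 itself. The background was high, since 40.8% of all genes were higher and 14.9% lower in this cluster, and the median log2 ratio over all genes was 0.39. The median over the pro-apoptotic members was 0.66 and over the anti-apoptotic members 0.48. The number of members called was thus read as close to the background, and the size of single ratios was described.

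BAX at 101 CPM in cluster 2 was 1.90 times (1.73 to 2.08) and TNFRSF1A at 116 CPM 2.34 times its level in the other cells. CASP8 at 21.7 CPM was 2.24 times, and FAS at 5.99 CPM, from 29 UMIs, 3.33 times that level. BAK1, CASP9 and PMAIP1 were the other pro-apoptotic members above the fold, at ratios of 1.58, 2.67 and 2.42, the last 2 from 25 and 40 UMIs. Of the anti-apoptotic members, BCL2L1 at 31.2 CPM was 2.47 times, TNFRSF6B at 269 CPM 2.40 times and BIRC3 at 101 CPM 1.73 times as high as in the other cells.

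The members that were lower in cluster 2 were cytochrome c, its partner in the apoptosome and the BH3-only BID. APAF1 was at 83.2 CPM against 229.6 CPM in the other cells, a ratio of 0.3625 (0.328 to 0.400). CYCS was at 139 against 258 CPM, a ratio of 0.540, and BID at 32.6 against 60.2 CPM, a ratio of 0.542. The summed pro-apoptotic level was 0.940 times and the summed anti-apoptotic level 1.35 times that of the other cells, and 1.08 times without TNFRSF6B.

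Other features moved with cluster 2. Its cells had a median of 6439 UMIs, whereas the medians of the other clusters of follicle 2 lay between 14115 and 19048.5. The 9 granulosa markers summed to 8069 CPM, against 26016 to 34377 CPM in clusters 0, 1 and 3 of the follicle. The lower sum lay in INHA at 2238 CPM and SERPINE2 at 1500 CPM, against 23679 and 7165 CPM over cluster 0 of both follicles. FSHR at 37.8 CPM, CYP11A1 at 1940 CPM, GJA1 at 1324.5 CPM and FST at 388 CPM were instead above their levels in cluster 0, of 0.280, 1715, 684 and 137 CPM. The 10 immune markers summed to 217 CPM, 9 of them above 0 and CD3E at 0, against 10.8 to 20.3 CPM in those clusters. CTSS gave 137 CPM of that sum. In clusters 4 and 5 of the follicle the immune markers summed to 22.3 and 153 CPM, the latter from 28 cells. Of the smooth muscle markers, ACTA2 at 60.5 CPM and TAGLN at 203 CPM were above cluster 0, at 0.504 and 6.285 CPM, while RGS5 at 284 CPM was below its 661 CPM there and DES was at 0.207 CPM. The 8 markers of theca or stromal cells summed to 84.1 CPM, against 504 CPM over the follicle, and of these INSL3 was at 35.9 CPM against 466 CPM in cluster 0 of both follicles. DCN at 18.2 CPM, LUM at 13.01 CPM, COL1A1 at 9.09 CPM, COL1A2 at 4.96 CPM, COL3A1 at 1.65 CPM and PDGFRA at 0.826 CPM were above cluster 0, where each was under 1 CPM.

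Without those 8 immune-marked cells, BMF was at 20.8 CPM and BCL2L11 at 50.3 CPM. Those 8 cells held 0 UMIs of either gene. The part of depth and of the other marker genes in these levels was not tested.

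The members were also examined cell by cell. In thinned cells the median was 4 pro-apoptotic UMIs in both follicles, with 3 to 6 as the interquartile range, and 3 anti-apoptotic UMIs. Anti-apoptotic UMIs outnumbered pro-apoptotic UMIs in 29.2% of the cells of follicle 1 and 22.3% of those of follicle 2, and in 42.9% of the cells in cluster 1 of follicle 1 and 18.7% of those in cluster 1 of follicle 2. At this depth CYCS was detected in 71.5% and 68.6% of cells, APAF1 in 60.25% and 60.34%, MCL1 in 55.9% and 51.1% and CFLAR in 53.91% and 53.95%. Before thinning these shares were 92.1% and 91.5% for CYCS and 83.2% and 84.6% for APAF1. The share that RNA free in the suspension would give was not measured, since no cell type that lacks these genes was at hand.

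Variation beyond counting and depth was expressed as a coefficient of variation over cells for genes with at least 500 UMIs, which 19 members had in each follicle. Its median over those members was 0.415 in follicle 1 and 0.371 in follicle 2, beside 0.476 and 0.496 over all genes. DIABLO was the most even member, at 0.0732 and 0.102. TNFRSF6B was the least even member measured in both follicles, at 1.85 and 1.46, and remained so within cluster 0 at 1.39 and 1.49. Its highest count in 1 cell was 102 UMIs in follicle 1 and 33 UMIs in follicle 2, and 1% of cells held 14.1% and 11.03% of its UMIs. PMAIP1 reached 2.86 in follicle 1, where the highest cell held 10 of its 547 UMIs, and BCL2L11 1.94 in follicle 2.

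The share of mitochondrial UMIs in a cell is often used as a sign of cell damage, so the members were followed over it. CPM over UMIs that are not mitochondrial was used here, so that the share itself does not enter the level. The pro-apoptotic sum was between 899.8 and 939.9 CPM over 6 bins of mitochondrial share in follicle 1 and between 905 and 941 CPM in follicle 2. In follicle 1 the intervals of the 1 to 2% bin (888 to 912 CPM) and the 3 to 4% bin (927 to 953 CPM) did not overlap. Within the sum, CYCS was lower and APAF1 higher in the highest bin than in the lowest, in both follicles. The anti-apoptotic sum of follicle 1 was 767 CPM under 1%, 813 CPM from 1 to 2% and 662.5 CPM from 5 to 7%, and that of follicle 2 stayed between 544.5 and 606.5 CPM. Without TNFRSF6B the anti-apoptotic sum was 459 CPM in the lowest and 541 CPM in the highest bin of follicle 1, and 422 and 466 CPM in those of follicle 2.

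**Figure D4:**
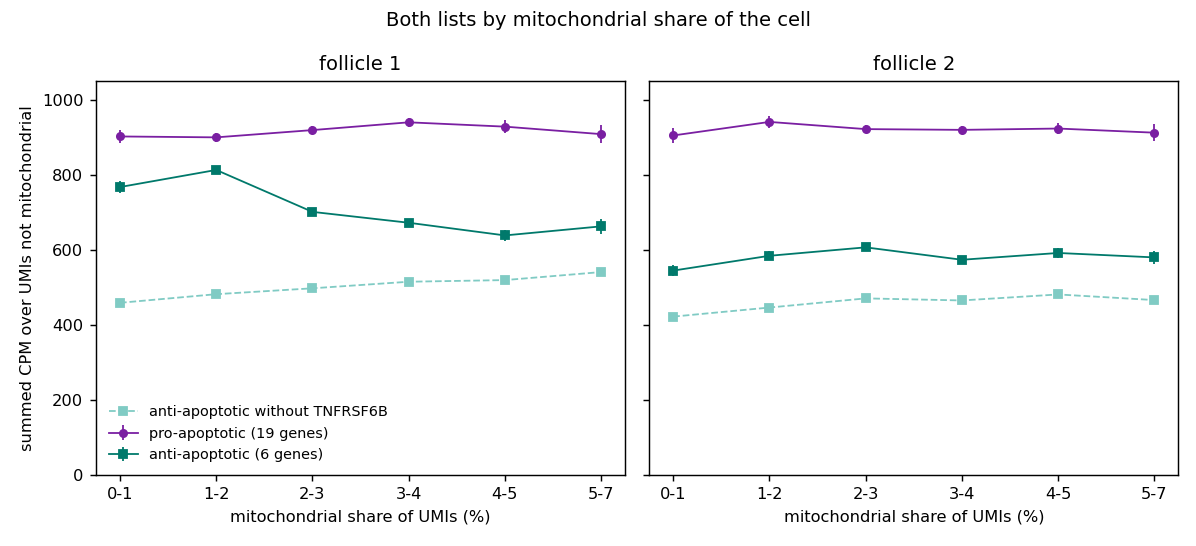
Summed CPM of the 19 pro-apoptotic and 6 anti-apoptotic members over UMIs that are not mitochondrial, in cells binned by mitochondrial share, with 95% Poisson intervals (none drawn on the dashed line without TNFRSF6B). The pro-apoptotic line stays between 899.8 and 941 CPM in both follicles, and the anti-apoptotic line of follicle 1 lies at 813 CPM in the 1-2% bin and 638 CPM in the 4-5% bin.

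Cells with at least 4% mitochondrial UMIs were compared with cells under 2% within each follicle, 1654 against 2979 cells in follicle 1 and 1711 against 1676 in follicle 2. In follicle 1, 3 of 16 pro-apoptotic members were past the fold and higher (APAF1, BCL2L11 and CASP8) and FAS was lower, and of 6 anti-apoptotic members BIRC6 was higher and TNFRSF6B lower. The intervals of BCL2L11 (0.994 to 1.87) and FAS (0.539 to 1.01) included 1. Of all genes in follicle 1, 21.0% were higher and 7.13% lower. In follicle 2 none of 15 pro-apoptotic and 6 anti-apoptotic members was higher and PMAIP1 was lower, with 7.96% and 2.38% of all genes past the fold. No member passed the fold the same way in both follicles, where 3.93% of all genes were higher and 1.03% lower. The median log2 ratio over all genes was 0.12 in follicle 1 and 0.05 in follicle 2, and the ratios are to be read relative to it.

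APAF1 was higher and CYCS lower at high mitochondrial share in both follicles, past the fold for APAF1 in follicle 1 alone. APAF1 stood at 175, 189, 214, 246, 244 and 254 CPM over the 6 bins of follicle 1 and at 184, 219.5, 229, 234, 247 and 259.6 CPM over those of follicle 2. Its ratio at 4% or more to under 2% was 1.34 (1.29 to 1.39) in follicle 1 and 1.22 (1.17 to 1.27) in follicle 2. CYCS, whose protein lies in mitochondria while its gene lies in the nucleus, stood at 298, 285, 273, 258, 239.6 and 231 CPM in follicle 1 and at 279, 281, 261, 257, 246.5 and 230.2 CPM in follicle 2. Its ratios were 0.818 (0.789 to 0.848) and 0.859 (0.828 to 0.891).

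The barcodes at 7% or more, with the same limits on genes, were 193 in follicle 1 and 142 in follicle 2. In them APAF1 was at 301 and 305 CPM and CYCS at 198 and 224 CPM, outside the range of the bins in both follicles. The pro-apoptotic sum was 919 and 939 CPM, within the range of the other bins. The anti-apoptotic sum was 690 CPM in follicle 1, within that range, and 650.0 CPM in follicle 2, above it. Without TNFRSF6B it was 577 and 506 CPM, above every other bin of both follicles. Among single members, TNFRSF1A at 83.4 and 66.6 CPM was above the other bins of both follicles. So were the anti-apoptotic BIRC6 at 103 and 89.9 CPM and MCL1 at 187 and 170 CPM. BIRC3 at 73.7 and 81.85 CPM and BCL2L1 at 18.1 and 18.5 CPM were above them as well. BAX at 31.7 and 45.7 CPM and BAD at 36.85 and 41.7 CPM were below the other bins. PMAIP1, from 7 and 1 UMIs, and CASP9, from 2 UMIs in each follicle, were also below. In follicle 2 the intervals of TNFRSF1A (53.05 to 82.6) and BAX (34.6 to 59.3) overlapped those of other bins.

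DIABLO was within 71.2 to 76.9 CPM over the bins of follicle 1 and 76.0 to 80.4 CPM over those of follicle 2. MCL1 was within 171 to 184 and 138.5 to 160.0 CPM. CFLAR had a ratio of 1.19 (1.14 to 1.24) in follicle 1 and 1.04 (0.993 to 1.09) in follicle 2. BIRC6, a very large inhibitor of apoptosis, had ratios of 1.35 (1.265 to 1.45) and 1.24 (1.15 to 1.33).

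TNFRSF6B had the lowest ratio of all members in follicle 1, at 0.370 (0.353 to 0.388), from 324 CPM under 2% to 120 CPM at 4% or more. In follicle 2 its levels were 132 and 112 CPM, a ratio of 0.845. The makeup of the cells moved with the share: cluster 1 made up 40.3% of the cells under 2% and 8.22% of those at 4% or more in follicle 1, and 12.9% and 8.36% in follicle 2. The median depth of the compared cells under 2% and at 4% or more was 11374 and 10807 UMIs in follicle 1 and 13894.5 and 13314 UMIs in follicle 2.

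Within cluster 0 alone TNFRSF6B was at 106 and 90.05 CPM in follicle 1, a ratio of 0.849, and the anti-apoptotic sum was 1.05 times as high at 4% or more in each follicle, where over all cells of follicle 1 it was 0.810 times. In cluster 0 the ratios in follicles 1 and 2 were 1.15 and 1.21 for APAF1, 0.901 and 0.856 for CYCS and 1.24 and 1.23 for BIRC6. Over all cells of follicle 1 these were 1.34, 0.818 and 1.35, and within cluster 0 none of the 3 was past the fold. BCL2L11 was the member past the fold in both follicles within cluster 0, at ratios of 1.47 (1.01 to 2.145) and 1.47 (1.07 to 2.05), from 55 and 64 UMIs in follicle 1 and 64 and 100 UMIs in follicle 2. Of 14 pro-apoptotic members there, CASP8 and PMAIP1 were also higher in follicle 1, at ratios of 1.285 (1.03 to 1.60) and 1.28 (0.907 to 1.81). PMAIP1 was lower in follicle 2 at 0.714 (0.484 to 1.05), so that its interval included 1 in both follicles. None of the 6 anti-apoptotic members passed. Of all genes in cluster 0, 10.4% were higher and 1.79% lower in follicle 1, and 10.7% and 1.99% in follicle 2. The share of all genes past the fold in both follicles within cluster 0 was not counted. Within cluster 1, TNFRSF6B was at 597 and 331 CPM in follicle 1 (ratio 0.554, 0.502 to 0.611) and at 152 and 99.9 CPM in follicle 2 (ratio 0.658, 0.554 to 0.780), where 10.3% and 6.59% of all genes were lower and 26.7% and 9.46% higher. The other members past the fold in cluster 1 differed by follicle. APAF1, CASP8 and BIRC6 were higher and BAX lower in follicle 1, where 12 pro-apoptotic and 6 anti-apoptotic members were above the floor. CASP6 and DIABLO were higher and BAD lower in follicle 2, where 10 and 5 were above it. The intervals of CASP8 in follicle 1 (0.840 to 2.69) and CASP6 in follicle 2 (0.974 to 1.72) included 1. BCL2L11 was under the floor in cluster 1 of both follicles. Its ratios there were 0.29 (0.0072 to 1.75), from 35 and 1 UMIs, in follicle 1 and 0.578 (0.188 to 1.52), from 18 and 6 UMIs, in follicle 2.

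**Figure D5:**
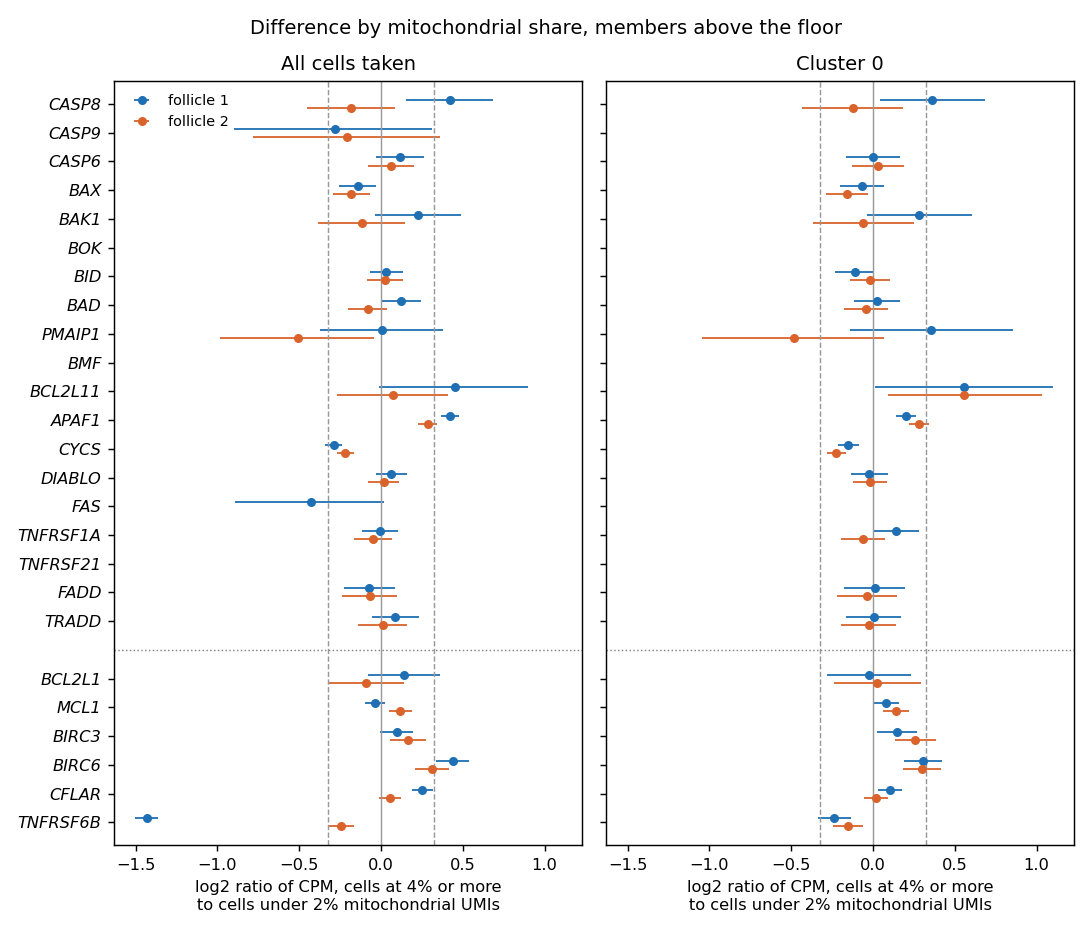
Log2 ratio of CPM in cells at 4% or more to cells under 2% mitochondrial UMIs for members above the floor, in follicle 1 (blue) and follicle 2 (orange), over all cells taken and within cluster 0. Bars are 95% intervals for counting error and dashed lines mark the fold limits of 0.8 and its inverse; APAF1 and BIRC6 lie right of 0 and CYCS left of 0 in both follicles and both panels.

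A wider list of 55 apoptosis genes outside the set, of which 46 were listed and 40 were above the floor, gave the setting. Between the follicles 3 of the 40 were higher and 4 lower in follicle 2, with a median log2 ratio of 0.01, beside 8.22% and 9.96% of all genes. In cluster 2, 10 of 40 were higher and 11 lower, beside 40.8% and 14.9% of all genes, with a median log2 ratio of 0.07 where the median over all genes was 0.39. At high mitochondrial share 7 of 37 were higher and 5 lower in follicle 1, and 3 of 37 were higher and 1 lower in follicle 2. The shares of all genes were 21.0% and 7.13% in follicle 1 and 7.96% and 2.38% in follicle 2.

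API5, an inhibitor of apoptosis outside the BCL2 and BIRC families, was the single gene of this list past the fold the same way in both follicles at high mitochondrial share. It was at 200.2 CPM under 2% and 302 CPM at 4% or more in follicle 1, a ratio of 1.51 (1.45 to 1.56), and at 267 and 336 CPM in follicle 2, a ratio of 1.26 (1.22 to 1.30). It was also higher in cluster 0 than in the other cells of each follicle, at 276 against 131 CPM and at 317.5 against 184 CPM. Cluster 0 made up 52.5% of the cells under 2% and 85.1% of those at 4% or more in follicle 1. In follicle 2 these shares were 74.5% and 82.5%. Within cluster 0 alone, and within cluster 1 alone, API5 did not pass the fold by mitochondrial share in either follicle. The part of the cluster shares in its ratios was not tested. BIRC5 (survivin), an inhibitor of apoptosis family member that also serves cell division, was the list's gene above the fold in cluster 3, at 113 and 124 CPM against 1.32 and 1.29 CPM in the other cells.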

How the data were processed

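The authors deposited, per follicle, the whole-number count of UMIs for each gene and called barcode, made with Cell Ranger 6.0.2 on the Sscrofa11.1 pig genome from 3′ libraries, with no normalization; the lowest total in a barcode was 500 UMIs in both. The members, lists and limits were chosen with earlier results of these data known. Barcodes with 2000 to 5000 genes and under 7% mitochondrial UMIs were kept. Doublets were not removed; leaving out the 6.9% of barcodes with the highest score against 25% artificial doublets was an alternative. Cluster names were not given, and clusters were made with Seurat 5.3.0 in R 4.3.3 (2000 variable genes without the members, anchor integration, 40 components, a resolution of 0.2, 6 clusters).

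UMIs were summed over cells and given as CPM with exact Poisson intervals. Ratios had exact conditional intervals and shares Clopper-Pearson intervals, all at 95%. PCR copies were collapsed by UMI, and intervals cover counting error only. With 1 library per follicle no p-value was computed. A gene entered a comparison with at least 100 UMIs, and passed below 0.8 or above its inverse (follicles, mitochondrial share) or at 1.5-fold (clusters of at least 20 cells). A count of 0 cells was given the limit that 3 counts would set. Every listed member was reported by follicle. Values by cluster and mitochondrial bin were given for the 3 most abundant members of each list; BMF, BCL2L11, FAS, BAX, BIRC6 and other members described there were chosen after their values were seen. On simulated data for the comparison of follicles, 98.0% of 200 genes changed 2-fold, among 11424 genes, were recovered. Both simulated libraries were Poisson counts from the pooled profile, without variation between cells, clusters or follicles. The recovery thus bears on counting error alone. Python 3.11.15, numpy 2.4.6, scipy 1.17.1, pandas 2.3.3 and matplotlib 3.10.9 were used. Gene positions came from a RefSeq table of the same assembly.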

Additional observations from a re-analysis of the deposited data

Results flagged for a closer look

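Some members lay above the other cells of a follicle in a cluster of 1 follicle and below them in the other, with counting intervals on opposite sides of 1. None of these differences between follicles was tested, since each follicle was 1 library. For cluster 0 the ratios to the other cells in follicles 1 and 2 were 1.15 and 0.804 for CASP8, the initiator of the extrinsic route, and 1.30 and 0.910 for the executioner CASP6. They were 1.13 and 0.856 for the adaptor TRADD and 1.14 and 0.808 for the guardian BCL2L1. The ratio of BCL2L11 in cluster 0 was 1.265 in follicle 1 and 0.330 in follicle 2. For all of these genes the other cells of follicle 2 included cluster 2. The ratios in cluster 2 were 2.24 for CASP8, 1.17 for CASP6, 1.42 for TRADD, 2.47 for BCL2L1 and 9.77 for BCL2L11. Within cluster 0, the ratios of follicle 2 to follicle 1 were 0.977 for CASP8, 0.982 for CASP6, 0.884 for TRADD, 0.8895 for BCL2L1 and 1.37 for BCL2L11.

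For cluster 1 the ratios in follicles 1 and 2 were 0.781 and 1.115 for CASP6 and 0.704 and 1.04 for APAF1. The summed pro-apoptotic UMIs had ratios of 0.981 and 1.04 there. The summed anti-apoptotic UMIs had ratios of 1.55 and 0.9695, and without TNFRSF6B these were 0.937 and 0.939.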

How the results depend on the processing

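No paired analysis was possible because each follicle was 1 library. Of the values that answer a comparison, 155 stayed within their counting interval or within 1.5 times the count under the alternatives, 51 moved and no called member changed direction, while sums that changed sign are given here with their values. Of the values of single members, 641 stayed and 56 moved. The cause of a change was not tested.

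The members higher at high mitochondrial share in both follicles numbered 0. They were 2 (APAF1 and BIRC6) with limits of 500 to 6000 genes and with all deposited barcodes, and 1 (BIRC6) with a mitochondrial limit of 10%, without the highest doublet scores and in cells of 8000 to 16000 UMIs. They were 1 (BCL2L11) in cluster 0 alone and 1 (BCL2L11) without cluster 2. The log2 ratio of summed anti-apoptotic UMIs at high to low share in follicle 1, -0.30, was -0.26 with 500 to 6000 genes, -0.21 with all barcodes, -0.34 without the highest doublet scores, 0.068 in cluster 0, -0.36 as CPM over all UMIs and -0.35 between cells in the highest and lowest quantile of the share. In follicle 2, 0.046 became 0.092 with all barcodes and -0.0083 as CPM over all UMIs. On that last scale the pro-apoptotic log2 ratio was -0.021 in follicle 1 and -0.0665 in follicle 2, from 0.033 and -0.012.

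Between the follicles, the members higher in follicle 2 were 1 in place of 2 with thinned cells, with a floor of 500 UMIs and without cluster 2, with BCL2L11 left in each. The log2 ratio of summed anti-apoptotic UMIs, -0.30, was -0.28 with thinned cells and -0.32 without cluster 2, and that of pro-apoptotic UMIs was 0.017 without mitochondrial and ribosomal protein genes in the library size. In cluster 1 the pro-apoptotic log2 ratio of 0.075 was 0.019 and the anti-apoptotic one of -0.79 was -0.68 without integration. With 20 components the anti-apoptotic log2 ratio was -0.85 in cluster 1 and -0.11 in cluster 0.

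Members higher in a cluster became 1 for cluster 1 (FAS) and 1 for cluster 4 (BIRC3) without integration, and 1 each for clusters 0 (APAF1) and 1 (TNFRSF6B) with 20 components. They became 1 each for clusters 3 (TNFRSF6B) and 4 (BIRC3) without the highest doublet scores, and 1 each for clusters 4 (TNFRSF6B) and 5 (CASP8) with thinned cells, in place of 0. Members lower became 0 for cluster 3 in place of 1 without integration, with 20 components, at a fold of 2 and with thinned cells, and 0 for cluster 4 with 20 components and at a fold of 2. At a fold of 2 they were 0 for cluster 0 and 1 (APAF1) for cluster 2, in place of 2 and 3, and with thinned cells they were 3 for cluster 5 in place of 1.

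The anti-apoptotic share of 43.9% and 38.8% was 37.0% and 32.0% without MCL1 and 35.2% and 33.4% without TNFRSF6B, and 38.4% in follicle 2 without cluster 2. The median percent of thinned cells with a UMI over the members was 14.9% and 16.2%, and 22.5% and 24.1% at 8000 UMIs. The alternatives without TNFRSF6B and without cluster 2 were chosen after seeing the data. Depth limits BMF, BOK, TNFRSF21 and CASP9, whose levels rest on few UMIs, and with 1 library per follicle the spread between follicles of a kind is unknown.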
